A study of Mus musculus with 6 samples.

Results

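Merkel cells are touch-sensing epithelial cells that arise from the basal layer of the epidermis and cluster in touch domes. The basic helix-loop-helix factor Atoh1 starts their programme, and the factors Pou4f3, Isl1, Sox2, Gfi1 and Insm1 act in it or mark it. Mature Merkel cells carry the simple epithelial keratins Krt8, Krt18 and Krt20 and the mechanically gated ion channel Piezo2. The genes described here are those 10 Merkel lineage genes, 6 factors and 4 effectors, taken by Ensembl ID from a table of 55536 genes, and all 10 were found.

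The libraries came from Epcam+α6+ basal cells sorted from dorsal skin of mouse embryos at E16.5, with 3 Ctrl and 3 TKO libraries. All 6 carried Suv39h1 f/f, Suv39h2-/- and Setdb1 f/f, so Ctrl also lacked Suv39h2, and all were exposed to tamoxifen, with E9.5, E10.5 and E11.5 listed as its days for the 3 litters used. TKO was K14CreERT2+ and Ctrl K14CreERT2-, and the floxed genes and Suv39h2 encode the 3 methyltransferases that place H3K9me3, a mark of silenced chromatin. Cre was driven by the keratin 14 promoter and the knockout of these litters is listed as mosaic, which limits TKO as a model of complete loss. The female libraries were Ctrl replicate 1 and TKO replicate 2, and the other libraries were male. Total counts were 102159175, 136515436 and 104422632 in Ctrl and 116308383, 108957256 and 118413082 in TKO. Levels are CPM, the counts of a gene scaled to 1000000 counts in the genes tested and adjusted by the trimmed mean of M values (TMM), and a count of 3 corresponded to 0.0232 to 0.0303 CPM. The 3 litters held 4 control and 5 TKO embryos in all, more than the 3 libraries of each group. The labels give neither the litter of a library nor whether it pools embryos, so p-values measure the spread between these libraries.

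Markers of the labelled cell type were abundant, with Krt14 and Krt5, the keratins of basal keratinocytes, at 3065 and 4909 CPM per kb of exon in Ctrl. Suprabasal genes were abundant too. A list of 10 of them summed to a mean of 19777 CPM in Ctrl, against 24695 CPM for 12 basal genes. These sums are not scaled by gene length. The Merkel lineage genes were rare transcripts beside Krt14 and Krt5. Per kb of exon, Krt8 had the highest Ctrl level, 1.82 ± 0.241 CPM (SD, n = 3), and the level of Krt14 was 1684 times that of Krt8. Krt18 followed at 1.37 CPM per kb, Sox2 at 0.954, Piezo2 at 0.785, Pou4f3 at 0.618 and Atoh1 at 0.580. Insm1, at 0.226 CPM per kb, Isl1, at 0.151, Gfi1, at 0.135, and Krt20, at 0.0825, were the lowest. In this order the Ctrl ranges overlapped between Krt8 and Krt18, Krt18 and Sox2, Sox2 and Piezo2, Pou4f3 and Atoh1, and Isl1 and Gfi1, so those neighbours did not differ beyond their spread.

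The deleted genes were read first in every library. Setdb1 had 125.5, 117.9 and 121.1 CPM in Ctrl and 95.3, 62.3 and 74.9 CPM in TKO. The groups did not overlap, and TKO replicate 2 was the lowest library. The log2 fold change of Setdb1 was -0.65 (adjusted p = 0.286 by edgeR's quasi-likelihood test and 0.0449 by DESeq2 on the same genes). Suv39h1 ranged from 78.5 to 88.7 CPM in Ctrl and from 68.9 to 89.4 CPM in TKO, and Suv39h2, deleted in both groups, from 15.6 to 17.1 and from 16.0 to 18.9 CPM. These counts cover whole genes and can include reads from transcripts of a deleted allele.

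Atoh1, Pou4f3, Isl1 and Krt8 had the largest differences of the 9 members tested, with TKO means between 16.6% and 26.3% of Ctrl and no overlap between groups. In bulk libraries fewer cells of a type and less RNA per cell cannot be told apart. Groups did not overlap, with TKO lower, for 7 of the 10 members, against 5.11% of the 20622 genes tested. The log2 fold change was below 0 for all 9 members tested and for 48.1% of all genes. A gene was called at an adjusted p below 0.05 (Benjamini-Hochberg) and a log2 fold change beyond 1. By edgeR, 0 of the 9 members tested were called lower, where 0.0% of all genes were called lower and 0.131% higher. At an unadjusted p below 0.05 in edgeR, 7 members were lower, against a background of 2.02%. DESeq2 on the same genes called 3 members lower, Pou4f3, Isl1 and Krt8, against a background of 0.102%. The standard DESeq2 workflow called 4, with Atoh1 (background 0.0998%), and edgeR without a filter on low counts called 3, Atoh1, Pou4f3 and Krt8 (background 0.0554%). Krt20 did not pass the count filter of the main edgeR fit. Atoh1 and Isl1 exceeded the count minimum of the filter in only 2 TKO libraries and Insm1 in 1, so these genes entered the test through their Ctrl levels.

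**Figure D1:**
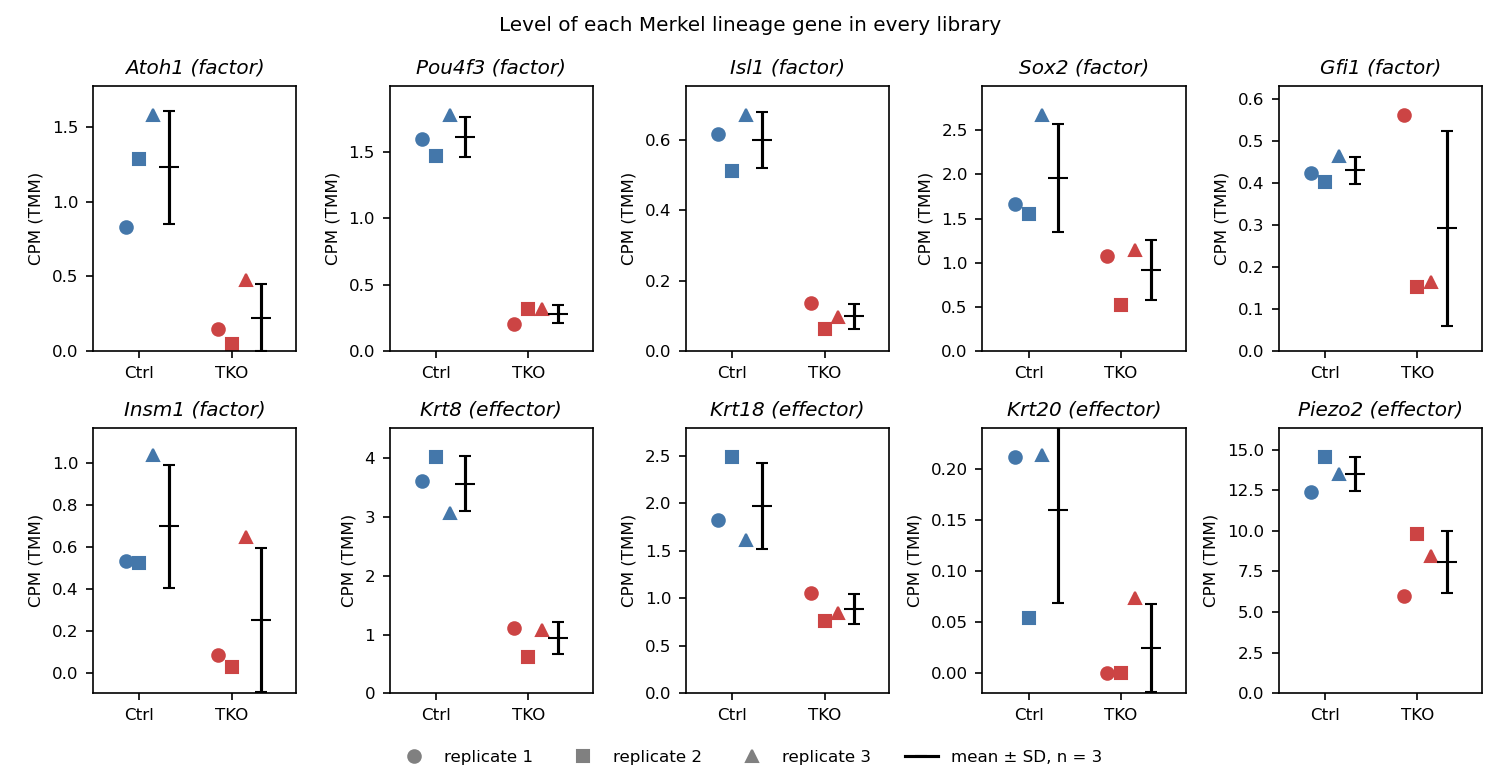
CPM (vertical axis, linear) of each of the 10 genes in 3 Ctrl (blue) and 3 TKO (red) libraries, with symbols for replicates and black bars for mean ± SD. Groups are separate for 7 genes, and overlap for Gfi1, Insm1 and Krt20.

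The promoters of 3 members are printed because Atoh1 opens the programme while Isl1 and Krt8 were the factor and the effector with the lowest TKO levels relative to Ctrl among those with a matched promoter and a test. Atoh1 binds with a partner at E-boxes, the letters CANNTG, a pattern that reads the same on both strands. The windows run from 250 bases before to 50 after the start site (RefSeq, GRCm38.p6), and capitals mark each CANNTG. The windows lie at chr6:64728875-64729174 (+) for Atoh1, chr13:116309639-116309938 (-) for Isl1 and chr15:102004293-102004592 (-) for Krt8.
Atoh1: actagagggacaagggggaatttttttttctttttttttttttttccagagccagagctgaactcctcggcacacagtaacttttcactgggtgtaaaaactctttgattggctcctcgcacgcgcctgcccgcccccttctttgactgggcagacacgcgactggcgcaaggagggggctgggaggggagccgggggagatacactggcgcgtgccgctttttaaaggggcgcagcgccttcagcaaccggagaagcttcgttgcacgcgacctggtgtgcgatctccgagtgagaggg
Isl1: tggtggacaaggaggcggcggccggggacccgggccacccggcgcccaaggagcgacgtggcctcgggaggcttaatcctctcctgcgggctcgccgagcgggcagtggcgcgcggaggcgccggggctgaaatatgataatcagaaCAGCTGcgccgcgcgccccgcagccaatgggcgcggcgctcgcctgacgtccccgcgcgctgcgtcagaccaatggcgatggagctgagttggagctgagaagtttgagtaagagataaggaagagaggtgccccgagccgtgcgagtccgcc
Krt8: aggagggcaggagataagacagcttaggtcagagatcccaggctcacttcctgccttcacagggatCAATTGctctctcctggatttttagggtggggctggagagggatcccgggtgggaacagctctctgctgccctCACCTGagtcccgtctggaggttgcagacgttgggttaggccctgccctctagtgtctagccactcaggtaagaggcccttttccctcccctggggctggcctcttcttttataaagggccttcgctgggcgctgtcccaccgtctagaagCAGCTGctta
The Isl1 window held CAGCTG at -103 from the start site, and the Krt8 window held CAATTG at -184, CACCTG at -111 and CAGCTG at 40. The Atoh1 window held no CANNTG. Of the 10 members 7 matched the table, with 8 windows in all, because Gfi1 had 2. Pou4f3, Insm1 and Piezo2 had no entry. CANNTG was found in 6 of these 8 windows and in 72.3% of 32851 windows of all genes. CAGCTG, which is also a CANNTG, was in 16.3% of all windows, and CAGATG, which is one too, was in 17.2% of all windows and in none of the 8. A match is a string of letters and not a bound site.

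Atoh1 (ENSMUSG00000073043, GRCm39 chromosome 6, 64706109 to 64708229), the factor that begins Merkel cell fate, had 0.828, 1.28 and 1.58 CPM in Ctrl and 0.144, 0.0453 and 0.477 CPM in TKO. Every TKO library was below every Ctrl library, and TKO replicate 3 kept the most. The log2 fold change was -2.46 ± 0.737 (SE; adjusted p = 0.459 by edgeR, 0.0552 by DESeq2 on the same genes and 0.0383 by the standard DESeq2 workflow). Without TKO replicate 3 it was larger, -3.67, and without single other libraries it lay between that value and -1.98.

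Pou4f3 (ENSMUSG00000024497, chromosome 18), a POU factor induced with Atoh1 in Merkel and hair cells, was the tightest of the factors. It had 1.60, 1.47 and 1.77 CPM in Ctrl and 0.204, 0.317 and 0.321 CPM in TKO, and no library came near the other group. Its log2 fold change was -2.52 ± 0.411 (adjusted p = 0.0749 by edgeR and 1.75e-06 by DESeq2), and by p it ranked 2nd of the 9916 genes with a lower level in TKO. Isl1 (ENSMUSG00000042258, chromosome 13, 116434817 to 116446235), a LIM homeodomain factor, had 0.616, 0.511 and 0.668 CPM in Ctrl and 0.136, 0.0634 and 0.0987 CPM in TKO. Its TKO values rested on 16, 7 and 12 counts, against 61, 66 and 72 in Ctrl. The log2 fold change was -2.57 ± 0.582 (adjusted p = 0.217 by edgeR and 0.0136 by DESeq2).

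Sox2 (ENSMUSG00000074637, chromosome 3, 34704554 to 34706610), an SRY-box factor also found in dermal condensates, was less reduced in level. It had 1.67, 1.56 and 2.66 CPM in Ctrl and 1.08, 0.525 and 1.14 CPM in TKO, without overlap, with a log2 fold change of -1.10 ± 0.428 (adjusted p = 0.736 by edgeR). Sox2 lies inside Sox2ot on the same strand, so its reads and those of Sox2ot may not be fully separable.

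Gfi1 and Insm1 overlapped between groups. Gfi1 (ENSMUSG00000029275, chromosome 5, 107864523 to 107873902), a zinc finger repressor, had 0.424, 0.402 and 0.464 CPM in Ctrl and 0.561, 0.154 and 0.164 CPM in TKO. TKO replicate 1 was the highest of all 6 libraries, and the log2 fold change of -0.55 ± 0.640 became -1.43 without it. Gfi1 overlaps Gm71307 on its strand and A430072P03Rik on the other. Insm1 (ENSMUSG00000068154, chromosome 2, 146063841 to 146066940), a zinc finger factor of neuroendocrine cells, had 0.535, 0.526 and 1.04 CPM in Ctrl and 0.0850, 0.0272 and 0.650 CPM in TKO. TKO replicate 3 lay within the Ctrl range, and the log2 fold change of -1.45 ± 0.933 became -3.61 without it.

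Krt8 (ENSMUSG00000049382, chromosome 15, 101905133 to 101912917) and Krt18 (ENSMUSG00000023043, chromosome 15, 101936615 to 101940462) encode the paired keratins that build the Merkel cell filament network. Krt8 had 3.61, 4.01 and 3.07 CPM in Ctrl and 1.10, 0.625 and 1.09 CPM in TKO. Its log2 fold change was -1.92 ± 0.353 (adjusted p = 0.113 by edgeR and 4.94e-06 by DESeq2), and by p it ranked 3rd among the genes lower in TKO. Krt8 overlaps Gm36026 on the other strand. Krt18 had 1.83, 2.48 and 1.61 CPM in Ctrl and 1.06, 0.761 and 0.847 CPM in TKO, again without overlap. Its log2 fold change was -1.15 ± 0.364 (adjusted p = 0.527 by edgeR and 0.102 by DESeq2). In both keratins TKO replicate 2 was the lowest library.

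Krt20 (ENSMUSG00000035775, chromosome 11, 99319227 to 99328985), a keratin of mature Merkel cells, had 21, 7 and 23 counts in Ctrl and 0, 0 and 9 counts in TKO. TKO replicate 3, at 0.074 CPM, was above Ctrl replicate 2, at 0.0542 CPM, so the groups overlapped. With every library kept, its log2 fold change was -2.68 (adjusted p = 0.961 by the standard DESeq2 workflow) and -2.65 (adjusted p = 0.658 by edgeR without a filter), and it was called in neither. It also entered 4 edgeR fits that left out single libraries, where its log2 fold change nearest 0 was -2.06 and it was not called. Without TKO replicate 3 the TKO libraries were both at 0, so no fitted fold is given, and the adjusted p was 0.241 by edgeR. A count of 0 allows up to 3 counts, a limit that covers counting error only.

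Piezo2 (ENSMUSG00000041482, chromosome 18), the channel that opens on touch, had the highest CPM of the members but the smallest relative difference among those that did not overlap. It had 12.4, 14.5 and 13.5 CPM in Ctrl and 6.0, 9.82 and 8.44 CPM in TKO. The log2 fold change was -0.74 ± 0.215 (adjusted p = 0.428 by edgeR and 0.0802 by DESeq2). Piezo2 overlaps Gm50171 on its strand and 4 genes on the other, Gm50172, Gm58370, Gm36651 and Gm58890, whose reads may not be separable.

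**Figure D2:**
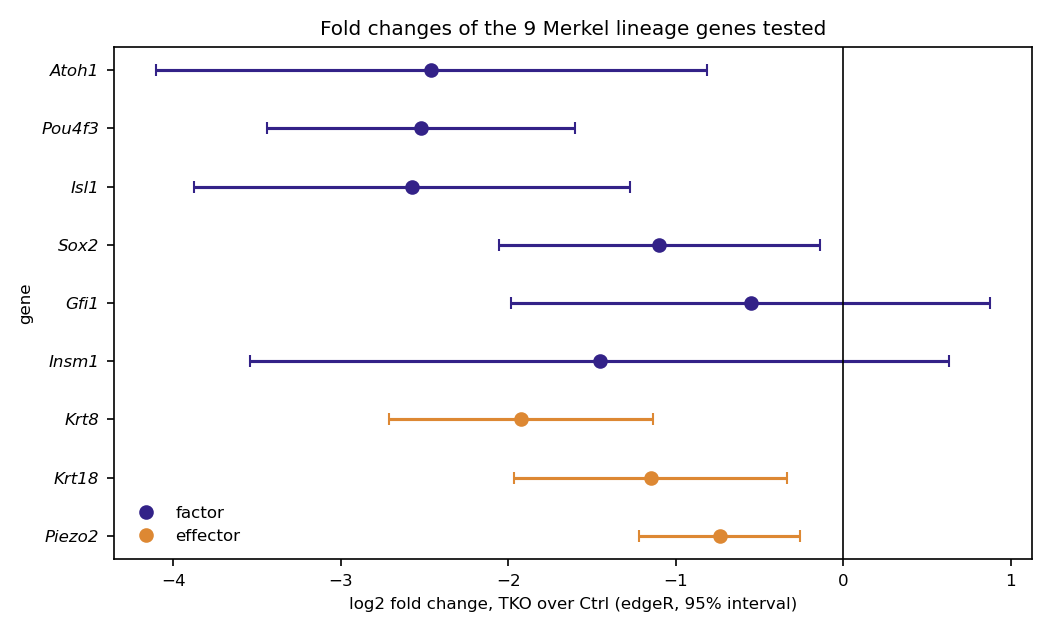
Log2 fold change of TKO over Ctrl (horizontal axis) with its 95% interval from edgeR for the 9 tested genes, factors in blue and effectors in orange. All points lie below 0, and the intervals of Gfi1 and Insm1 cross 0.

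The summed level left in TKO was read apart for factors and effectors. The 6 factors summed to 5.66, 5.75 and 8.18 CPM in Ctrl and 2.21, 1.13 and 2.85 CPM in TKO, 31.6% of the Ctrl mean. The 4 effectors summed to 18.1, 21.1 and 18.4 CPM in Ctrl and 8.17, 11.2 and 10.5 CPM in TKO, 51.8% of the Ctrl mean, and Piezo2 made up most of that sum. Without Piezo2 the effectors were at 32.5%, close to the factors, and the difference between factors and effectors was not tested.

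The TKO libraries were not alike in what they kept. TKO replicate 2, the only female TKO library, was the lowest TKO library for 7 of the 10 members and had the lowest Setdb1 level. For Krt20 it shared the value of 0 with TKO replicate 1. TKO replicate 3 was the lowest for 0 members and the highest for 5, Atoh1, Pou4f3, Sox2, Insm1 and Krt20. The median level left over the members was 26.9%, 18.6% and 40.8% of the Ctrl mean in TKO replicates 1, 2 and 3. The order of Setdb1 differed, since TKO replicate 3 had less Setdb1 than TKO replicate 1 but kept more of the members by this median. The parts of mosaic deletion and of sex in the spread between TKO libraries were not tested.

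**Figure D3:**
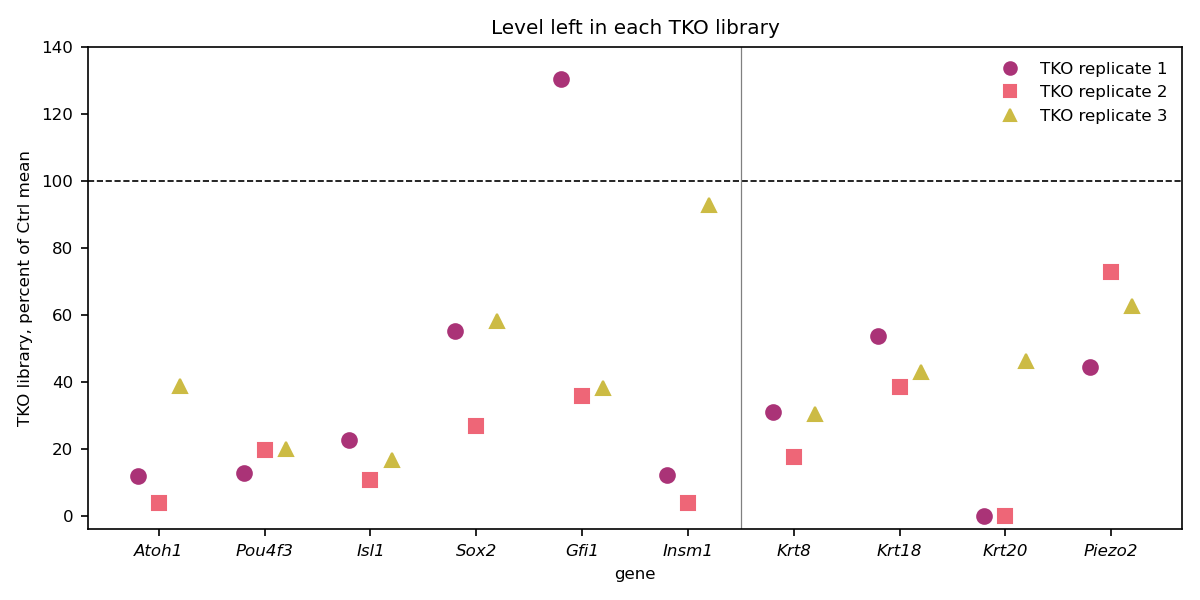
Level of each gene in each TKO library as a percent of its Ctrl mean (dashed line at 100), factors left of the grey line and effectors right. TKO replicate 3 sits at 92.8% for Insm1, and TKO replicate 1 at 130% for Gfi1.

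Pairs of tested members were positively correlated over the 6 libraries. Pearson's r of log2(CPM + 0.1) had a median of 0.757 over 36 pairs, from 0.079 for Gfi1 and Piezo2 to 0.969 for Isl1 and Krt8. The same libraries and the same group difference underlie every pair, so these r values are a description. Among 14052 tested genes with a mean of at least 1 CPM, the patterns most like Atoh1 were those of Chst2 (r = 0.996), a sulfotransferase, and P3h4 (r = 0.995), a collagen-modifying protein. Those most like Krt8 were Aldh1a1 (r = 0.993), a retinaldehyde dehydrogenase, and Mrc2 (r = 0.992), a collagen receptor. Those most like Piezo2 were Trim26 (r = 0.982) and N4bp2l1 (r = 0.967). The genes named depend on the added constant, since with log2(CPM + 1) the first 2 were Serpina3h and Tmem45a for Atoh1 and Inka1 and Aldh1a1 for Krt8.

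Further genes of the Merkel programme were read from lists. By edgeR 0.0% of all genes tested were called lower and 0.131% higher. A count of 0 passing therefore says little about any short list here or below. Of 11 further neurosensory factors 7 were tested and 0 passed an adjusted p of 0.05 in edgeR, with a median log2 fold change of -0.44 against 0.013 over all genes tested. Their summed level was 33.4, 36.0 and 37.1 CPM in Ctrl and 25.2, 24.5 and 34.9 CPM in TKO. Sox21 was the most abundant, with 19.3, 20.3 and 24.3 CPM in Ctrl and 15.8, 14.7 and 23.0 CPM in TKO, which overlap. Hes6, a Notch antagonist, had 8.54, 9.83 and 6.33 CPM in Ctrl and 5.64, 6.26 and 5.67 CPM in TKO, without overlap. Myt1, a zinc finger factor named after its values were seen, had 0.606, 0.557 and 0.408 CPM in Ctrl and 0.0935, 0.0181 and 0.345 CPM in TKO, with no overlap and TKO replicate 3 again the highest of TKO. These were the 2 of the 7 tested factors whose groups did not overlap, and 6 of the 7 had a log2 fold change below 0, against 5.11% and 48.1% of all genes.

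Of 32 neuroendocrine and synaptic genes 22 were tested and 0 passed, with a median log2 fold change of -0.15. Their sum was led by Ncam1, a cell adhesion molecule, which had 65.0, 70.5 and 88.7 CPM in Ctrl and 69.2, 72.7 and 104 CPM in TKO. Vamp2, a vesicle fusion protein, ranged from 40.2 to 62.7 CPM in Ctrl and from 48.3 to 70.8 CPM in TKO. The list sum overlapped between groups, at 108% of Ctrl. By gene 15 of the 22 were below 0 and 2 were lower without overlap, against 48.1% and 5.11% of all genes tested. Rab3c, a vesicle GTPase, was the only listed gene at an unadjusted p below 0.05 in edgeR, where 2.02% of all genes were lower. It was named after its values were seen, with 0.303, 0.248 and 0.881 CPM in Ctrl and 0.0680, 0.181 and 0.0247 CPM in TKO.

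The pathways upstream of Merkel fate showed no gene that passed in edgeR, where 0.0% of all genes were called lower and 0.131% higher. That count cannot tell whether these pathways changed. All 13 Notch pathway genes were tested, with a median log2 fold change of 0.11, and Notch1, the main receptor, had 1339, 870 and 1404 CPM in Ctrl and 1294, 1500 and 1486 CPM in TKO. All 10 genes of Polycomb repressive complex 2, which restrains Merkel genes in the epidermis, were tested, with a median of -0.0059, and 2 of them, Rbbp4 and Phf19, were lower without overlap, against 5.11% of all genes. All 18 Hedgehog, Eda, Wnt and Fgf genes were tested, with a median of 0.078, and 2 were higher without overlap, against 6.35% of all genes. At an unadjusted p below 0.05 in edgeR 1 of the 18 was higher, against 4.06%. The 5 touch dome keratinocyte genes summed to 613, 656 and 534 CPM in Ctrl and 463, 713 and 780 CPM in TKO, and 0 of the 5 passed.

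Markers of other cell types were read beside the members. The simple keratin with the most CPM was Krt7, though per kb of exon it was at 1.23 CPM in Ctrl, against 1.82 CPM for Krt8. Krt7 had 8.51, 12.4 and 5.16 CPM in Ctrl and 6.87, 19.7 and 5.54 CPM in TKO, which overlap. Krt19, shared with periderm, had 1.50, 0.464 and 1.16 CPM in Ctrl and 0.935, 1.51 and 0.419 CPM in TKO. Of 12 basal keratinocyte genes 0 passed in edgeR, and Krt15, a basal keratin, had 2716, 2579 and 2089 CPM in Ctrl and 901, 792 and 1573 CPM in TKO (adjusted p = 0.185 by edgeR and 0.00066 by DESeq2). The basal list summed to 80.1% of Ctrl, with overlap, and Krt5 made up 42.4% of it. By gene the list went the other way, with a median log2 fold change of 0.057 and 4 of 12 genes below 0. Without overlap, Krt15 alone was lower and 2, Itgb4 and Itga3, were higher, against 5.11% and 6.35% of all genes tested. The suprabasal list, led by Krt1, summed to 19244, 19130 and 20956 CPM in Ctrl and 17154, 13020 and 13670 CPM in TKO, 73.9% of Ctrl and without overlap, and Krt1 made up 49.2% of it. By gene its median log2 fold change was 0.10 and 5 of 10 were below 0. In edgeR 0 of the 10 passed and 2, Krt1 and Krt10, were lower at an unadjusted p below 0.05, against 2.02% of all genes.

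Of 14 sensory neuron genes 10 were tested and 0 passed. Their sum was 59.1, 49.5 and 72.2 CPM in Ctrl and 46.7, 52.8 and 81.9 CPM in TKO, of which Runx1, also a keratinocyte gene, made up 86.6%. By gene the median log2 fold change was -0.39, and 6 of the 10 were below 0, against 48.1% of all genes tested. Prph, a defining sensory neuron marker, was at or below 0.0680 CPM in every library. Of 9 Schwann cell genes 7 were tested and 0 passed, with Erbb3 leading the sum and Foxd3 at 0 in all libraries. The Schwann sum was at 89.4% of Ctrl, with overlap, while by gene the median log2 fold change was 0.25 and 1 of 7 was below 0. The 8 dermal condensate genes, Sox2 among them, summed to 43.2, 52.1 and 58.8 CPM in Ctrl and 33.5, 33.7 and 77.4 CPM in TKO, led by Cxcr4, and 0 passed. For the periderm, hair placode, melanocyte, fibroblast, immune and endothelial lists 0 genes passed in edgeR. Their summed levels were 114%, 112%, 122%, 99.4%, 127% and 153% of Ctrl. By gene, in the same order, the median log2 fold changes were -0.040, 0.12, 0.33, -0.095, 0.21 and 0.60. Below 0 were 5 of 10, 2 of 10, 1 of 7, 6 of 8, 0 of 6 and 0 of 6 genes tested, against 48.1% of all genes. Higher without overlap were 1, 2, 1, 0, 1 and 0 genes, against 6.35% of all genes. The immune sum rested on 1 library, with 21.8, 44.8 and 13.1 CPM in Ctrl and 6.54, 75.6 and 19.0 CPM in TKO, so that the other TKO libraries were below the Ctrl mean of 26.5 CPM. TKO replicate 2, the lowest TKO library for 7 members, also had the highest endothelial sum, 68.5 CPM, against 27.3 and 55.0 CPM in TKO replicates 1 and 3 and 29.6, 28.6 and 40.6 CPM in Ctrl.

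Of 9 skeletal muscle genes, all tested, 1 passed in edgeR, higher in TKO, where 0.131% of all genes were called higher. For 4 of the 9, TKO was above Ctrl without overlap, against 6.35% of all genes tested. The list summed to 3.92, 11.2 and 7.84 CPM in Ctrl and 35.9, 37.1 and 36.2 CPM in TKO, with Ttn, the giant sarcomere protein, the most abundant. Myh3, the embryonic myosin heavy chain, rose from 0.656, 0.758 and 0.501 CPM to 3.87, 3.46 and 4.37 CPM (log2 fold change 2.61, adjusted p = 0.0211 by edgeR). Its call was lost when sex was a factor and when any library but TKO replicate 3 was left out. The part of these other cell types in the Merkel lineage differences was not tested.

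**Figure D4:**
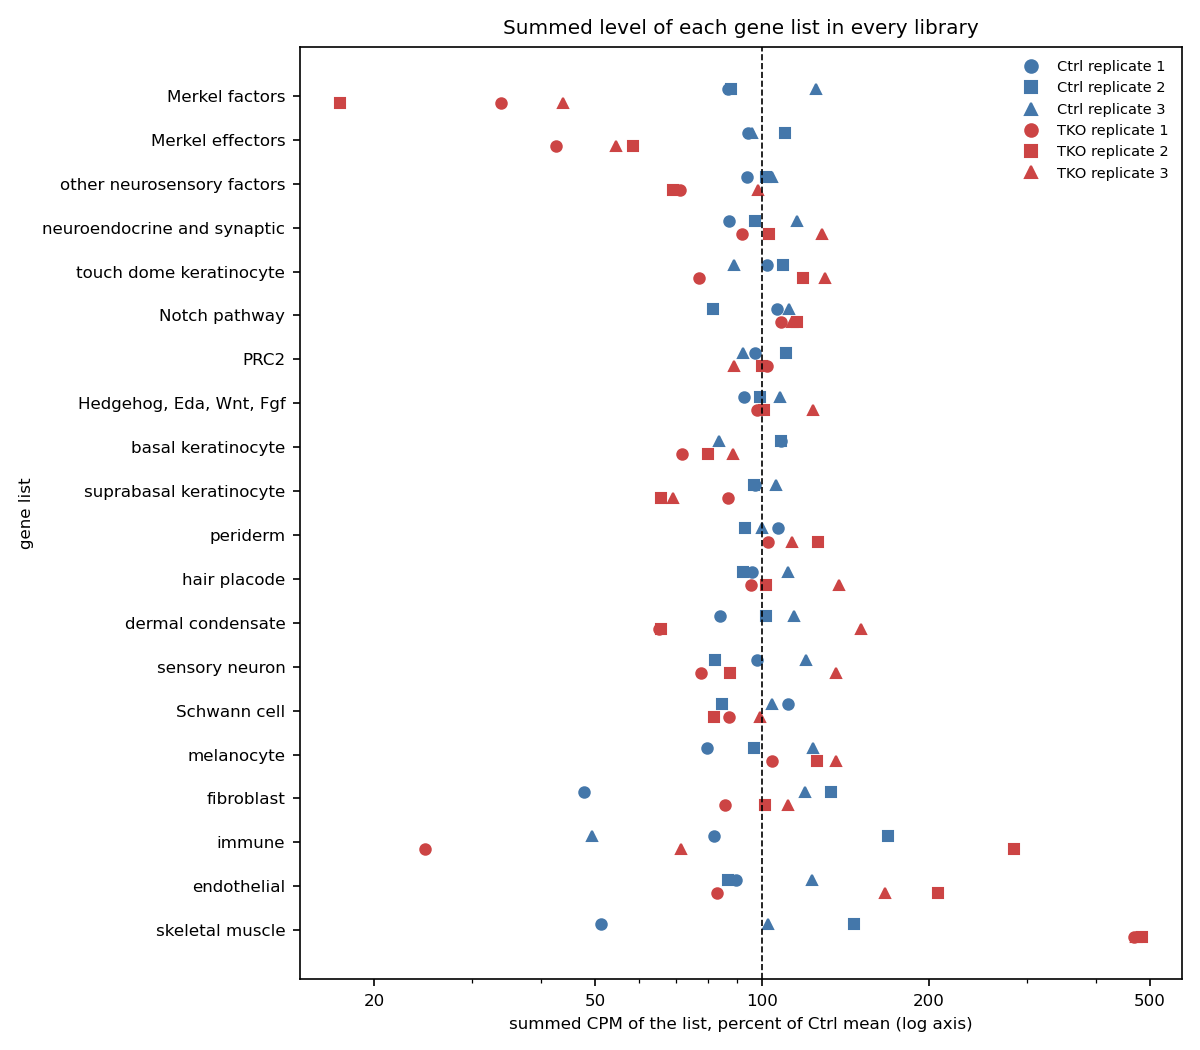
Summed CPM of each gene list in each Ctrl (blue) and TKO (red) library as a percent of the Ctrl mean (log axis, dashed line at 100). The Merkel factors and effectors and the suprabasal list, whose sum is mostly Krt1 and Krt10, lie below their Ctrl libraries in all 3 TKO libraries, and skeletal muscle lies above.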

How the data were processed

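RNA from sorted basal cells was depleted of ribosomal RNA and sequenced as paired ends. Per the labels and methods, the authors trimmed reads with fastp and aligned them with STAR. The methods name GRCm39 and the submitters' processing notes GRCm38. The counting program, annotation and strand setting are not given in the sources used here. The authors deposited 1 table of raw counts per gene in the 6 libraries, of which 51477 of 55536 IDs matched GENCODE vM39 (GRCm39), the source of gene positions and exon lengths.

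Counts were tested with edgeR (version 4.0.16, R 4.3.3) by glmQLFit and glmQLFTest with TMM scaling and filterByExpr, which kept 20622 genes, with Benjamini-Hochberg adjustment over all of them. The biological coefficient of variation was 36.5%. DESeq2 (as used by the study), other filters, a replicate block, sex as a factor and leaving out each library were alternatives. The tests were checked on simulated data. The members and lists were chosen with earlier results of these data known. Named genes were the 10 members, the deleted genes, list genes that passed or the most abundant up to 4 of a list, and the 2 genes most correlated with Atoh1, Krt8 and Piezo2. Myt1, Rab3c, Prph, Foxd3, Itgb4, Itga3 and Phf19 fall outside this rule and were chosen after their values were seen.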

Additional observations from a re-analysis of the deposited data

How the results depend on the processing

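Across 13 alternatives the log2 fold changes of the 9 members tested stayed below 0 in all 114 combinations of gene and setting. The choices moved calls and not direction, but these fits reuse the same libraries and are not independent. Of all genes, 27 were called higher and 0 lower. DESeq2 on the same genes called 193 higher and 21 lower, its standard workflow 198 and 29, and edgeR with no filter 213 and 22. A minimum of 10 counts in every library gave 9 higher. Leaving out single libraries gave 7 to 65 higher and 0 to 16 lower, both highest without TKO replicate 3. The members called lower were 0 in the reported edgeR fit, 3 by DESeq2 on the same genes, 4 by its standard workflow (Atoh1 too) and 3 with no filter (Atoh1, Pou4f3 and Krt8). Factors passing lower were then 2, 3 and 2, and effectors, simple keratins (Krt8) and basal keratinocyte genes 1 each. Basal keratinocyte genes ranged from 0 to 1 when single libraries were left out. The melanocyte list gained 1 higher in each of these 3 settings, the periderm list 1 lower and the endothelial list 1 higher with no filter, and the deleted methyltransferases 1 lower by DESeq2 on the same genes and with no filter. Skeletal muscle genes passing higher, 1 as reported, were 5, 5 and 4, were 0 with sex as a factor, and ranged from 0 to 1 without single libraries. The causes were not tested.

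The replicate block called 44 genes higher and 1 lower. Same-numbered libraries correlated at 0.168, 0.0873 and 0.127 in their deviations from the group means, each the highest for its library. Their column names also carry neighbouring CK numbers. Both are hints of a pairing, but no label states one, and the reported fit left the libraries unpaired. Depth limits Krt20, Atoh1, Isl1, Gfi1 and Insm1 most, with under 20 counts in some TKO libraries.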
